A study of Mus musculus with 4 samples.

Results

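Translation initiation factors are the proteins that bring the small ribosomal subunit and the initiator tRNA to the start codon of an mRNA. Their genes were followed in the BAT of Tg mice after activation of Fv2E-PERK, a kinase that phosphorylates 1 of these factors, eIF2α. The genes were all those whose mouse symbol begins with Eif, without the Eif2ak kinases and the Eif4ebp inhibitors. Of 55681 distinct probes on the array, 26582 had a symbol of 20145 genes, and 70 of these probes belonged to 48 initiation factor genes. The genes were grouped by factor into eIF1, eIF2, eIF2B, eIF3, eIF4, eIF5 and eIF6, as the symbol gives it. The rule itself used no expression value, but it was chosen with earlier results of these data known.

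The samples were BAT of 4 male Tg mice of the C57/BL6N strain, 2 injected with vehicle and 2 with AP20187 (AP), the ligand that pairs and so activates Fv2E-PERK. All of them carried the Fv2E-PERK transgene under the mouse aP2 (Fabp4) promoter, and no wild-type mice were included. This promoter is active in white and brown adipose tissue, and aP2 is also made by macrophages. The mice were 8 weeks of age, and BAT was taken at 12 h after the intraperitoneal injection. The labels give a dose of 1 ng/g and the legend of the experiment gives 0.05 mg/kg, a higher dose, and the mismatch is not explained. Vehicle was an aqueous mixture of ethanol, PEG-400 and Tween-20. The labels number the samples within a group and do not state more about their source, so the p-values concern the spread between these samples. In limma, the test used below, the spread of a gene is also drawn toward that of all probes compared. In a gene with tight groups the SE is therefore larger than the spread of its own mice.

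Each sample was labeled with Cy3 and hybridized to its own array, and 46.4% to 49.0% of the spots were well above background. Levels below are log2 signals from which the 75th percentile of all signals on that array was subtracted, so a level of 0 is this percentile and a difference of 1 is a doubling. They do not rank different genes, because each probe has its own brightness. A difference is the mean of the AP-treated mice minus the mean of the vehicle-treated mice on this log2 scale. The log2 of the summed signal of 7 brown adipocyte markers was 12.6 in vehicle replicate 1, 12.0 in vehicle replicate 2, and 12.3 and 12.5 after AP, so vehicle replicate 2 was the lowest. Among them Ucp1 had levels of 9.66 to 10.4 and Cox7a1 of 9.50 to 10.1, but Elovl3 had 6.08 and -1.07 after vehicle and 3.52 and 5.76 after AP, and Dio2 had 0.49 and 1.53 against -1.78 and 3.33. The ISR targets Trib3 and Ddit3 were higher in both AP-treated mice than in both vehicle-treated mice, by 4.57 and 1.61. Atf4, also checked as an ISR read-out, had 7.49 and 6.12 against 7.26 and 8.23, a difference of 0.94 with overlapping groups. Vehicle replicate 2 stood apart from the other 3 mice in leukocyte markers. The log2 of the summed signal of the 7 markers compared was 6.76 in that mouse, 4.97 in vehicle replicate 1, and 5.25 and 5.16 in AP replicates 1 and 2. The log2 sum of the 8 skeletal muscle markers, all measured, was 5.52 in vehicle replicate 1 and 9.66 in vehicle replicate 2, against 9.07 and 8.21 after AP. The part of these markers in the results below was not tested, and in a piece of tissue a change in cell types and a change in the RNA of each cell cannot be told apart. The arrays of the groups lay at different positions on 1 slide, so position and treatment cannot be told apart.

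In initiation, eIF2 bound to GTP delivers the initiator tRNA, eIF1 and eIF1A keep the small subunit open for scanning, and eIF3 is the large scaffold on that subunit. The eIF4 factors bind the cap and unwind the 5′ end of the mRNA, eIF5 triggers GTP hydrolysis by eIF2, and eIF2B reloads eIF2 with GTP. In the ISR, phosphorylated eIF2α blocks eIF2B, so most translation slows while the transcription factor ATF4 is made. ATF4 binds DNA at CARE elements, whose core was searched here as the letters TGATGNAA, and the E-box CACGTG is a site of MYC and of other factors of its class. Both were searched on either strand of the promoter windows described below.

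Of the 48 genes, 46 had a probe whose signal was flagged as well above background in the 2 mice of a group, and 64 of the 70 probes entered the comparison. Eif4e1b, the cap-binding form known from oocytes, was not well above background in any mouse. Eif5b, whose product joins the ribosomal subunits, was well above background in vehicle replicate 2 only, with levels of -4.93 and -3.27 after vehicle and -4.38 and -5.66 after AP. No initiation factor probe passed an adjusted p of 0.05 (limma, Benjamini-Hochberg over 24973 probes), where 0 of all probes did (0%), and their smallest adjusted p was 0.80. Before adjustment, 2 of 64 probes had a limma p under 0.05 with a higher level after AP, against 3.3% of all probes, and 0 had one with a lower level, against 2.77%. The probes were those of Eif3a and 1 of 3 probes of Eif4b. With 2 mice against 2, the smallest two-sided p that an exact permutation test allows for 1 gene is 0.333.

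Small positive differences outnumbered negative ones. The difference was above 0 in 35 of 46 genes (76.1%), against 51.4% of all named genes, and its median was 0.13 against 0.01. In 17 genes (37.0%) the AP-treated mice lay wholly above the vehicle-treated mice, against 20.1% of all named genes, and in 5 (10.9%) wholly below, against 17.3%. In the other 24 genes the groups overlapped. Counted by probe, the difference was above 0 in 51 of 64, against 48.6% of all probes, and the AP-treated mice lay wholly above in 23 of 64, against 18%, and wholly below in 5 of 64, against 20.4%. The differences ranged from -0.42 to 0.70, and the median of their size was 0.23, close to the 0.24 of all named genes.

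This excess of positive differences rested largely on 1 vehicle-treated mouse. Vehicle replicate 2 had the lowest level of the 4 mice in 29 of 46 genes (63.0%), against 35.9% of all named genes. It was below vehicle replicate 1 in 39 of 46, and in 7625 of the 12791 named genes. Against vehicle replicate 2, AP replicate 1 was higher in 32 genes (69.6%), where 53.7% of all named genes were. AP replicate 2 was higher in 40 (87.0%), where 55.9% of all named genes were. Against vehicle replicate 1, they were higher in 24 and 28 of the 46 genes (52.2% and 60.9%). The shares of all named genes there were 48.4% and 47.3%, so each AP-treated mouse taken singly showed a smaller excess. With the AP-treated mice averaged and vehicle replicate 2 left out, the difference was above 0 in 20 of 46 genes and below 0 in 26. The median was then -0.02, as was that of all named genes, so no excess remained in the median. The share of all named genes above 0 in that setting was not counted. Vehicle replicate 2 had the highest leukocyte and muscle sums and the lowest brown adipocyte sum, as given above. In muscle, however, the mouse furthest from the others was vehicle replicate 1, at 5.52 against 8.21 to 9.66. The array of vehicle replicate 2 also had the highest 75th percentile signal, 158.7 against 118.5 to 127.6. The first number of its position code on the slide was 2, and that of the other arrays was 1. The part of these differences in the excess was not tested.

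**Figure D1:**
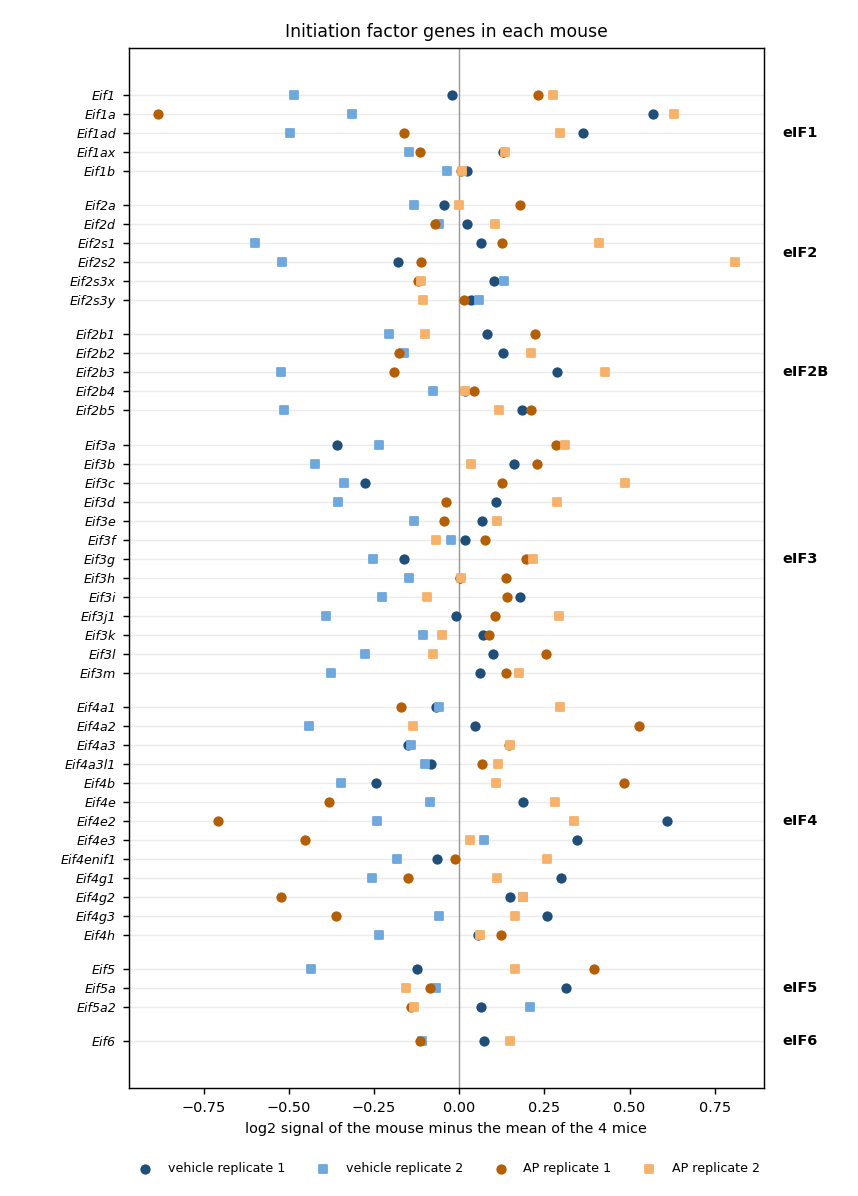
Level of each of the 46 initiation factor genes in each mouse, as the log2 signal minus the mean of the 4 mice for that gene (x axis), grouped by factor. Blue points are vehicle-treated and orange points AP-treated mice, circles are replicate 1 and squares replicate 2. The light blue squares of vehicle replicate 2 are the lowest point in 29 of the 46 rows.

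The eIF3 genes gave the highest median of the groups with more than 1 gene. All 13 subunits of the complex, from Eif3a to Eif3m, were measured, and their differences were between 0.01 and 0.61 with a median of 0.25. All 13 were above 0 on this scale, whereas 12 were with quantile normalization, 11 with another background correction and 8 in the authors' own log2 table. The median of all named genes is itself -0.15 in that table, and the eIF3 median lay 0.24 above it there, as it did here. Vehicle replicate 2 was the lowest mouse in 11 of the 13 genes, and without it 7 of 13 were above 0 and the median was 0.02. Of the other factors together, 22 of 33 genes were above 0, with a median of 0.06.

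The groups did not overlap in 6 of the 13 eIF3 genes, all 6 with the AP-treated mice higher, against 20.1% of all named genes wholly higher and 17.3% wholly lower. Eif3a, the largest subunit and part of the core of the complex, had levels of 1.60 and 1.72 after vehicle and 2.24 and 2.26 after AP. The mice of a group were close together and the gap between the groups was wide. The difference was 0.59 (1.51-fold, SE 0.20, 95% interval 0.06 to 1.13), with a limma p of 0.036 before and 0.80 after adjustment, and it was between 0.53 and 0.66 with each mouse left out in turn.

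Eif3c, another core subunit, had levels of 5.78 and 5.72 after vehicle and 6.19 and 6.54 after AP. The vehicle-treated mice were again close, and both AP-treated mice lay above them. The difference was 0.61 (1.53-fold, SE 0.23, adjusted p = 0.80, limma), and the lower end of the 95% interval lay at 0. A second probe of Eif3c gave 4.45 and 4.68 against 4.56 and 5.27, where the groups overlapped, with a difference of 0.35. The 250 bases before the start of Eif3c, the eIF3 gene with the largest difference, hold neither motif and are shown for comparison with the promoters below (chr7:126566367-126566616, minus strand, GRCm38.p6, in the direction of the gene).
Eif3c: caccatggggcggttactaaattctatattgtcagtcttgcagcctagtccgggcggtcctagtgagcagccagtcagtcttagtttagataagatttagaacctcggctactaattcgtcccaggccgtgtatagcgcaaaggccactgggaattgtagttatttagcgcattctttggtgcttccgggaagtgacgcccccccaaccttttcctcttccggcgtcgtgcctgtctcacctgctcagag

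Eif3g, a subunit with an RNA-binding domain, had levels of 5.76 and 5.67 after vehicle and 6.12 and 6.14 after AP. Each group was tight, and the difference was 0.42 (SE 0.20, adjusted p = 0.80, limma), between 0.37 and 0.46 with each mouse left out. Eif3j1, a loosely bound subunit, had 2.61 and 2.23 against 2.73 and 2.91, a difference of 0.40, and the groups were also apart on its second probe, by 0.23. Eif3m had 4.46 and 4.03 against 4.54 and 4.58, a difference of 0.31, and Eif3h had 6.55 and 6.40 against 6.69 and 6.56, a difference of 0.14. On the second probes of these genes the groups overlapped, with 4.22 and 3.86 against 4.14 and 4.17 for Eif3m, a difference of 0.11, and a difference of 0.15 for Eif3h. In Eif3j1, Eif3m and Eif3h vehicle replicate 1 lay near the AP-treated mice. In the other 7 genes (Eif3b, Eif3d, Eif3e, Eif3f, Eif3i, Eif3k and Eif3l) the groups overlapped, with differences of 0.01 to 0.26. Of these, Eif3e, Eif3f, Eif3i and Eif3k had differences under 0.10.

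**Figure D2:**
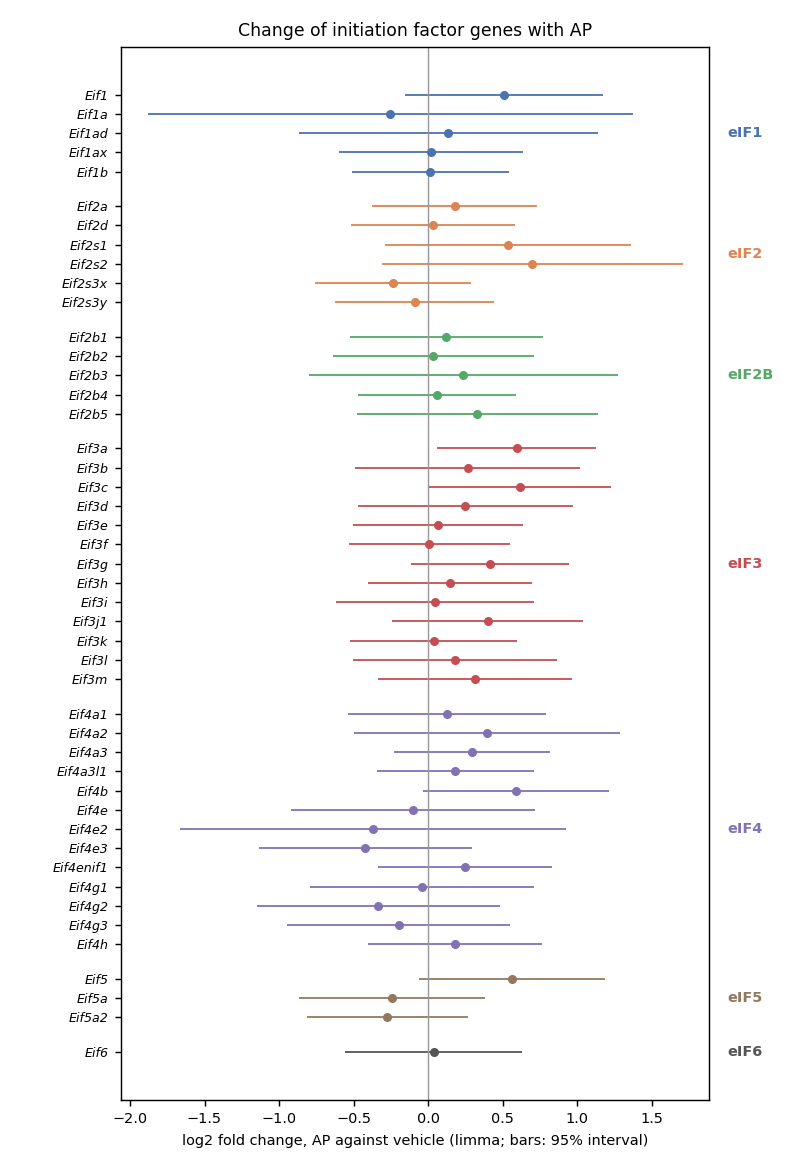
Difference between AP and vehicle for each initiation factor gene (x axis, log2 fold change), grouped and colored by factor. Points are limma estimates over 2 mice in each group and bars are their 95% intervals before adjustment; only the bar of Eif3a lies wholly above 0.

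Within eIF2, the subunits did not move together. Eif2s1 encodes eIF2α, the substrate of the kinase that AP activates. Its levels were 3.81 and 3.15 after vehicle and 3.87 and 4.16 after AP, so vehicle replicate 1 and AP replicate 1 were almost level. The difference was 0.54 (SE 0.31, 95% interval -0.29 to 1.36, adjusted p = 0.80, limma), and it was 0.20 without vehicle replicate 2. On a dimmer probe of Eif2s1 the groups overlapped, with -1.74 and -2.08 against -1.07 and -2.07, a difference of 0.34.

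Eif2s2, the gene of eIF2β, had the largest positive difference of all 46 genes. Its levels were 4.74 and 4.40 after vehicle and 4.81 and 5.73 after AP, and AP replicate 2 stood well above the other 3 mice. The difference was 0.70 (1.62-fold, SE 0.38, 95% interval -0.31 to 1.71, adjusted p = 0.80, limma), and it ranged from 0.24 without AP replicate 2 to 1.16 without AP replicate 1. A dimmer probe of Eif2s2 had 0.52 and 0.16 against 1.16 and 0.71, with the AP-treated mice higher by 0.59 and AP replicate 1 as the higher of them.

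Both genes of eIF2γ, the subunit that binds GTP and the initiator tRNA, were lower in the AP-treated mice. Eif2s3x, the copy on the X chromosome, had 2.50 and 2.53 after vehicle and 2.28 and 2.29 after AP. The mice of a group were almost equal, and the difference was -0.23 (SE 0.20, 95% interval -0.76 to 0.29, adjusted p = 0.84, limma). Eif2s3y, the copy on the Y chromosome, had 3.28 and 3.30 against 3.26 and 3.14, a difference of -0.09. A second probe of Eif2s3x gave -0.04 with overlapping groups, and the copies are similar enough that their probes could share signal.

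Eif2s3x was the only initiation factor gene with the CARE core in a promoter window. The window spans 250 bases before and 50 after the start, from RefSeq on GRCm38.p6, and 39 of the 48 genes have at least 1, for 51 windows. The CARE core lay in 1 of 51 windows (1.96%), against 3.97% of the 32851 windows of all genes. Capitals mark it in the bases before the start (chrX:94212652-94212901, minus strand, in the direction of the gene), where it ran against the direction of the gene and began 96 bases before the start.
Eif2s3x: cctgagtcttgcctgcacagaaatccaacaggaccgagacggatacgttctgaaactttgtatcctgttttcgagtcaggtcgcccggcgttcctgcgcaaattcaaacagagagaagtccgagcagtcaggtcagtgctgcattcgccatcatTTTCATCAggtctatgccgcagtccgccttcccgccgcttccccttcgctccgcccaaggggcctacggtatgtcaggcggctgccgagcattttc

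The remaining eIF2 genes have roles beside the main complex. Eif2a, whose product can bring initiator tRNA without the eIF2 complex, had 0.75 and 0.66 against 0.97 and 0.79, a difference of 0.18 with the groups apart. Eif2d, which acts in recycling and reinitiation, had a difference of 0.03 with overlapping groups. Eif2s1, Eif2s2 and Eif2a were higher, and Eif2s3x and Eif2s3y lower, under each other processing tried. Leaving out a mouse cannot change these directions, because the groups were apart on the probe used for each gene.

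The eIF2B genes, Eif2b1 to Eif2b5, encode the subunits α to ε of the complex that phosphorylated eIF2α blocks. All 5 differences were above 0 on this scale, from 0.04 to 0.33 with a median of 0.12, but only 2 were in the authors' table, 3 with another background correction and 1 without vehicle replicate 2. Eif2b5, the catalytic subunit, had 2.34 and 1.64 after vehicle and 2.37 and 2.28 after AP. Only vehicle replicate 2 was low, and the difference of 0.33 (SE 0.31, 95% interval -0.48 to 1.14, adjusted p = 0.84, limma) became -0.02 without it. Eif2b4 was the only eIF2B gene whose groups did not overlap, 1 of 5 (20%) wholly higher, near the 20.1% of all named genes. It had 4.36 and 4.26 against 4.38 and 4.36. Its difference was 0.06 (SE 0.20, adjusted p = 0.96, limma), and it was -0.10 in the authors' table. Eif2b1, Eif2b2 and Eif2b3 had differences of 0.12, 0.04 and 0.24 with overlapping groups.

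Of the 5 eIF1 genes, Eif1 was the only gene whose groups were apart when each was read by its brightest probe. That is 1 of 5 wholly higher (20%), near the 20.1% of all named genes. Eif1, which guards the choice of start codon, had 7.31 and 6.85 after vehicle and 7.57 and 7.61 after AP. The AP-treated mice were almost equal, and vehicle replicate 2 was the lowest. The difference was 0.51 (1.42-fold, SE 0.25, 95% interval -0.16 to 1.17, adjusted p = 0.80, limma), and 0.28 without vehicle replicate 2. Its paralog Eif1b, measured with 3.66 and 3.60 against 3.64 and 3.65, had a difference of 0.01 (95% interval -0.51 to 0.54).

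The brightest probes of the eIF1A genes, which encode the scanning factor beside eIF1, overlapped between the groups. Eif1a varied widely among mice, with 3.77 and 2.88 after vehicle and 2.31 and 3.83 after AP, so that AP held both the lowest and the highest level. Its difference was -0.25 (95% interval -1.88 to 1.37). Its paralog Eif1ax had 4.77 and 4.49 against 4.53 and 4.78, a difference of 0.02, and Eif1ad, named for a domain of eIF1A, had a difference of 0.13. A dimmer probe of Eif1ad had 1.86 and 2.05 against 2.07 and 2.27, with the groups just apart and a difference of 0.21.

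Of the 13 eIF4 genes, 7 had a difference above 0 and 6 below, with a median of 0.12. The AP-treated mice lay wholly above the vehicle-treated mice in 5 (38.5%), against 20.1% of all named genes. They lay wholly below in 1 (7.7%), against 17.3%. The 6 genes below 0 were those named for eIF4E, which binds the cap (Eif4e, Eif4e2 and Eif4e3), and for eIF4G, which holds eIF4E and eIF4A together (Eif4g1, Eif4g2 and Eif4g3). They were picked out by their sign after the values were seen, so their shared direction is a description and no finding.

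These 6 lower values depended on AP replicate 1. It was the lowest mouse in 5 of the 6 genes, the exception being Eif4g1, and without it 5 of 6 differences were above 0, with a median of 0.08. Without vehicle replicate 1, 3 of 6 were above 0. Eif4e, the cap-binding protein itself, had 2.81 and 2.54 after vehicle and 2.24 and 2.90 after AP. The AP-treated mice lay on either side of the vehicle-treated mice, and the difference was -0.10 (SE 0.31, 95% interval -0.92 to 0.72, adjusted p = 0.95, limma). A dimmer probe of Eif4e had 0.05 and -0.54 against 0.16 and 0.27, with the AP-treated mice higher by 0.46, so the direction of Eif4e depended on the probe.

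Eif4e has 2 promoter windows, and the later start holds 2 E-boxes, shown in capitals in the bases before it (chr3:138527018-138527267, plus strand, GRCm38.p6). They began 228 and 64 bases before the start.
Eif4e: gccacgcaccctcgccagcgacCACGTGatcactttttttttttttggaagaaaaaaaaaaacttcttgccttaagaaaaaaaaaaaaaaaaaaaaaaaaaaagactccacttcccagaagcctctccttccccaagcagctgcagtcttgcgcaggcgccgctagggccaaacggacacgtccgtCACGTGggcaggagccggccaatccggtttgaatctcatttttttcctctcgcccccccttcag

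Eif4e3, an eIF4E relative, was the only eIF4 gene with both AP-treated mice below both vehicle-treated mice. It had 2.0 and 1.73 after vehicle and 1.20 and 1.69 after AP, and AP replicate 2 was only just below vehicle replicate 2. The difference was -0.42 (0.75-fold, SE 0.27, 95% interval -1.14 to 0.29, adjusted p = 0.81, limma), the largest negative difference of the 46 genes, and -0.18 without AP replicate 1. Eif4e2, which encodes a cap-binding protein that represses translation, had 4.62 and 3.77 against 3.30 and 4.35, a difference of -0.37 with overlapping groups.

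Eif4g1, the main scaffold, had 5.79 and 5.24 after vehicle and 5.34 and 5.60 after AP. The AP-treated mice lay between the vehicle-treated mice, and the difference was -0.04 (SE 0.28, 95% interval -0.79 to 0.71, adjusted p = 0.98, limma). Its paralog Eif4g3 had 2.17 and 1.85 against 1.55 and 2.07, a difference of -0.20. Eif4g2, a relative that does not bind eIF4E, had 3.63 and 3.66 against 2.95 and 3.66, and AP replicate 1 alone gave its difference of -0.34.

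Eif4b, whose product stimulates the helicase eIF4A, had the largest positive difference of the eIF4 genes. Its levels were 2.98 and 2.88 after vehicle and 3.71 and 3.34 after AP. Both AP-treated mice were clear of the vehicle-treated mice. The difference was 0.59 (1.51-fold, SE 0.24, 95% interval -0.03 to 1.22, adjusted p = 0.80, limma), and 0.41 to 0.78 with each mouse left out. The other probes of Eif4b gave -0.11 and -0.10 against 0.74 and 0.16, and -0.67 and -1.21 against 0.05 and -0.24, so that all 3 had the AP-treated mice above the vehicle-treated mice, by 0.56 to 0.84. The brightest of the 3 did not have the largest difference. Its promoter, shown because Eif4b was the gene with 3 probes apart in the same direction, holds neither motif (chr15:102073523-102073772, plus strand, GRCm38.p6).
Eif4b: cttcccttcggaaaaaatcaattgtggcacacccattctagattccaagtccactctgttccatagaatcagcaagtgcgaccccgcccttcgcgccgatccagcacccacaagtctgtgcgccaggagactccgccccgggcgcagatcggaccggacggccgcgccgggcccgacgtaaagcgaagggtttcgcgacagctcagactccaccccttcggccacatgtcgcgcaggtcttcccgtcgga

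Among the helicase genes, Eif4a3, a core part of the exon junction complex, had 1.65 and 1.66 after vehicle and 1.94 and 1.95 after AP, a difference of 0.29 between tight groups (SE 0.20, adjusted p = 0.81, limma). Eif4a3l1, listed as a separate gene like Eif4a3, had 3.27 and 3.26 against 3.42 and 3.47, a difference of 0.18. Signal shared between these copies cannot be told apart. Eif4a1, the main helicase of initiation, had 5.93 and 5.94 against 5.83 and 6.29, a difference of 0.12, and its paralog Eif4a2 had 5.38 and 4.89 against 5.86 and 5.19, a difference of 0.39. The groups overlapped in both. Eif4enif1, which carries eIF4E into the nucleus, and Eif4h, which helps eIF4A, had differences of 0.25 and 0.18 with the groups apart.

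Of the eIF5 and eIF6 genes, Eif5 was higher after AP and the genes of eIF5A lower. Eif5, the GTPase-activating protein of eIF2, had 5.15 and 4.84 after vehicle and 5.67 and 5.44 after AP. The groups were apart, and the difference was 0.56 (1.47-fold, SE 0.24, 95% interval -0.06 to 1.18, adjusted p = 0.80, limma), and 0.40 to 0.71 with each mouse left out. A second probe of Eif5 had 4.54 and 4.49 against 4.00 and 4.66, a difference of -0.19 with overlapping groups, so the direction depended on the probe here too.

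Eif5a, the hypusine-bearing factor that helps elongation, had 5.38 and 5.0 after vehicle and 4.98 and 4.91 after AP. Vehicle replicate 1 was above the other 3 mice, which were close together, and the difference was -0.24. Its paralog Eif5a2 had 0.80 and 0.94 against 0.59 and 0.60, with the groups apart and a difference of -0.27 (SE 0.20, 95% interval -0.81 to 0.26, adjusted p = 0.82, limma). It was -0.35 to -0.20 with each mouse left out. Eif6, which keeps the ribosomal subunits apart, had 3.70 and 3.52 against 3.52 and 3.78, a difference of 0.04 (SE 0.22, 95% interval -0.56 to 0.63, adjusted p = 0.98, limma).

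**Figure D3:**
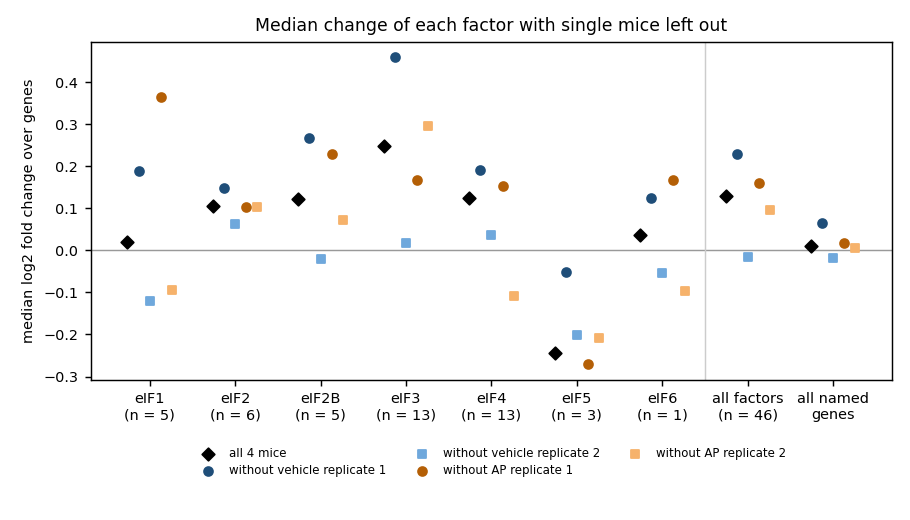
Median log2 fold change of the genes of each factor (y axis), over all 4 mice (black diamonds) and with a single mouse left out (colored points), beside the median of all 46 factor genes and of all named genes. The eIF3 median lies between 0.02 and 0.46 and the eIF5 median between -0.27 and -0.05 with a mouse left out, whereas those of eIF1, eIF2B, eIF4 and eIF6 lie on both sides of 0; in the authors' log2 table the medians of eIF1, eIF2, eIF2B, eIF4 and eIF6 are below 0.

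The E-box lay in 12 of the 51 windows (23.5%), against 7.15% of all windows. The windows of a gene with several starts can overlap, and the 12 windows belonged to 10 genes: Eif1b, Eif3a, Eif3f, Eif3k, Eif4a1, Eif4e, Eif4g1, Eif4h, Eif5a and Eif5a2. These genes did not share a direction, since Eif3a had a difference of 0.59, Eif1b of 0.01 and Eif5a2 of -0.27. Eif5a2, lower after AP with the groups apart, holds 2 E-boxes, which began 142 and 117 bases before the start and are in capitals (chr3:28781027-28781276, plus strand, GRCm38.p6).
Eif5a2: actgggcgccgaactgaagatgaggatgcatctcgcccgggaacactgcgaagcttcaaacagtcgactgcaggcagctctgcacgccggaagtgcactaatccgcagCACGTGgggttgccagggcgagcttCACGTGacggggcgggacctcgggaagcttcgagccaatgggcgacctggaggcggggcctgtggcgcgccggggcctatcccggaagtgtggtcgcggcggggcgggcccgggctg

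The motif letters are a description of these windows, and no binding was measured. Eif2s1, Eif2s2 and Eif5 had no CARE core in the windows held for them here.

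For 16 genes more than 1 probe was compared, and in 14 of these all probes had a difference on the same side of 0. The exceptions were Eif4e and Eif5, as given above. The probes of Eif2b3, Eif3h and Eif6 gave almost the same difference, of 0.23 to 0.24, 0.14 to 0.15 and 0.03 to 0.04, and those of Eif4b and Eif2s2 were all at 0.56 or more.

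**Figure D4:**
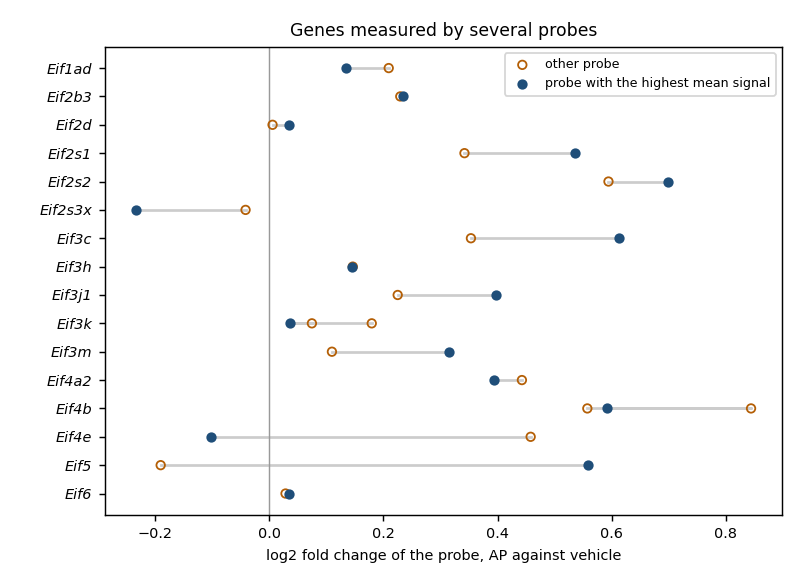
Log2 fold change of each probe (x axis) for the 16 genes measured by several probes. Filled points are the probe with the highest mean signal, used for the gene, and open points the other probes; the probes of Eif4e and Eif5 lie on both sides of 0.

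The other genes of the pathway, 38 genes of a list of kinases, phosphatases, inhibitors, poly(A)-binding partners and elongation and release factors, were measured in full. The difference was above 0 in 20 and below 0 in 18, with a median of 0.06. The AP-treated mice lay wholly above the vehicle-treated mice in 8 of 38, against 20.1% of all named genes, and wholly below in 6 of 38, against 17.3%, so both counts were near the shares of all genes. None passed the adjusted threshold, and 1 of 38 had an unadjusted limma p under 0.05 with a higher level, against 3.78% of all named genes, and 0 with a lower one, against 2.26%. This gene, Paip2b, encodes an inhibitor of the poly(A)-binding protein. It had 0.60 and 0.55 after vehicle and 1.75 and 1.44 after AP, a difference of 1.02 (2.03-fold, SE 0.22, adjusted p = 0.80, limma), with the groups far apart.

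Among the regulators of eIF2, 3 of the 4 kinase genes had a difference above 0, and Eif2ak2, of PKR, was below. Eif2ak1 and Eif2ak4 had differences of 0.25 and 0.34 with overlapping groups. Eif2ak3, of PERK, had 0.71 and 0.67 against 0.96 and 0.96, a difference of 0.27. The transgene carries the kinase domain of PERK, and its share in this signal was not tested. Eif2ak2 had 0.26 and 0.36 against -0.23 and -0.14, a difference of -0.50 (SE 0.20, adjusted p = 0.80, limma) with the groups apart. Ppp1r15a, which directs a phosphatase to eIF2α, had 3.13 and 2.34 against 2.57 and 4.46, and only AP replicate 2 was high.

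Among the regulators of eIF4, Eif4ebp1, the inhibitor of eIF4E, had 7.01 and 6.52 against 7.17 and 7.24, a difference of 0.44. Its relative Eif4ebp2 had 4.44 and 4.40 against 4.32 and 3.90, a difference of -0.31. Pdcd4, an inhibitor of eIF4A, had 3.72 and 3.31 against 2.84 and 3.08, a difference of -0.55 (SE 0.25, adjusted p = 0.80, limma). In each of these 3 genes the groups were apart, as they were in Mknk1, with a difference of -0.32. Of the poly(A) partners, Pabpc4 and Paip1 were also apart, both higher after AP, by 0.53 and 0.52. Pabpc1, the main poly(A)-binding protein, had 5.55 and 5.87 against 5.63 and 5.66, a difference of -0.07 (SE 0.22).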

How the data were processed

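BAT RNA of 2 vehicle-treated and 2 AP-treated Tg mice was measured on 4 one-color SurePrint G3 Mouse arrays. The authors extracted the scans with Agilent Feature Extraction 10.7.1.1, per the submitters' processing notes, and deposited each spot's background-subtracted intensity, which is linear and not normalized between arrays. The authors also deposited a log2 table of the same arrays, whose normalization and centering are not stated. It was used as an alternative, and the lowest Pearson's r between its array differences and those used here was 0.9986.

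The log2 intensity minus the 75th percentile of its array was used. Control spots and outlier spots were left out, and spots of a probe were averaged. Probes flagged well above background in the 2 mice of a group (24973 of 55681) were fitted with limma 3.58.1 (lmFit, then eBayes) under R 4.3.3, with Benjamini-Hochberg adjustment over all of them. Saturated spots numbered 0, and precision is limited by the number of arrays. Probes were named by accession through RefSeq on GRCm38.p6, used for names because the design file gives another build. The probe with the highest mean signal stood for a gene. Promoter windows came from RefSeq on the same assembly, and proteins were not analyzed here.

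The members, gene lists and tests were chosen with earlier results of these data known. Full values were given for genes at an unadjusted p under 0.05, for the largest positive and negative difference of each factor among genes with groups apart, and for Eif1, Eif2s1, Eif2b5, Eif4e, Eif4g1, Eif5 and Eif6. Other genes are given with fewer values. Lists of brown adipocyte, adipocyte, white adipose tissue, macrophage, leukocyte and muscle markers were checked. Adipocyte genes were high in all mice (Fabp4 from 10.4 to 10.9). The median levels of 3 white adipose markers were 0.04 and 3.23 after vehicle and 0.19 and -0.10 after AP, and those of 3 macrophage markers were 0.52 and 1.33 against 0.73 and 0.33.

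Alternatives were the authors' table, normexp with an offset of 50 on the median spot signal, quantile and array-median scaling, no filter or a filter on all 4 arrays, a variance trend, a gene's mean over its probes, the methods' t-test, a replicate block, and leaving out each mouse. Slide and scan could not be fitted as a block, since all arrays shared 1 slide and 1 scan. Same-numbered mice are not stated to be paired.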

Additional observations from a re-analysis of the deposited data

How the results depend on the processing

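The number of initiation factor probes past an adjusted p of 0.05 was 0 under every alternative run (limma or the methods' t-test, with Benjamini-Hochberg adjustment). At an unadjusted p under 0.05, 2 of 64 probes were higher with limma (3.3% of all probes), 4 with the methods' t-test (2.71%), 4 with normexp (3.37%), 6 with a variance trend (3.3%) and 1 in the authors' table (1.83%). With a mouse left out there were 0 to 3, which was 0 without vehicle replicate 2 (2.7%), 3 without vehicle replicate 1 (4.33%), and 1 each without AP replicate 1 (2.27%) and AP replicate 2 (3.2%). None was lower with limma (2.77%), and 1 was with the methods' t-test (3.21%) and 1 of 70 without the filter on dim probes (2.33%). No source states that the replicate numbers pair the mice, and the correlation between the deviations of mice with the same number was -0.13. A replicate block left 1 probe higher (2.8%) and changed no other call.

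The median of all named genes is -0.15 in the authors' table, and most medians fell below 0 there: -0.032 for all initiation factor genes, -0.14 for eIF1, -0.056 for eIF2, -0.039 for eIF2B, -0.037 for eIF4, -0.40 for eIF5 and -0.13 for eIF6 (Eif6). Relative to all named genes, the median of all initiation factor genes was 0.12 in both. For eIF6, normexp gave -0.044 and quantile normalization -0.00019, and for eIF2, scaling to the array median gave 0.19.

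With single mice left out, the median ranged from -0.015 to 0.23 for all genes, -0.12 to 0.36 for eIF1, 0.063 to 0.15 for eIF2, -0.022 to 0.27 for eIF2B, 0.017 to 0.46 for eIF3, -0.11 to 0.19 for eIF4, -0.27 to -0.053 for eIF5 and -0.096 to 0.17 for eIF6. The lowest values of all genes, eIF1, eIF2, eIF2B and eIF3 were those without vehicle replicate 2, and those of eIF4 and eIF6 those without AP replicate 2.

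Of single genes, Eif2b4 was -0.10 in the authors' table and -0.020 with normexp. Eif4e was 0.18 as the mean of its probes, and Eif4g1 was 0.044 with the array median. With a mouse left out, Eif2b5 ranged from -0.020 to 0.68, Eif4e from -0.43 to 0.23, Eif4g1 from -0.32 to 0.24 and Eif6 from -0.096 to 0.17. In all, 22 of 46 genes (17 higher, 5 lower) kept their direction with each of 4 mice left out and under 7 other alternatives. This held for 6 of 13 in eIF3 and 0 of 5 in eIF2B. The share of all named genes that did so was not counted, so these counts do not set the members apart from other genes. Where the groups are apart, leaving out a mouse cannot change the direction, and the changes of filter left these values as they were. The causes were not tested.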
